A study of Homo sapiens with 8 samples.

Results

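The genes encoding subunits, activators and assembly factors of the proteasome were followed in RNA that an anti-ac4C antibody pulled down from 2 osteosarcoma cell lines, where ac4C is the modified base N4-acetylcytidine. Genes were taken by symbol, from PSMA to PSMG, and a peak was given to a gene where it overlapped that gene and no other protein-coding gene of the GRCh38 annotation. Of 50 protein-coding genes with such a symbol, 48 encode proteasome subunits or factors, and PSMC3IP and PSME3IP1, which are named after a proteasome partner, had no peak. Of the 48 genes, 30 had an assigned peak, 46 peaks in all, among 9089 genes and 31395 peaks in the whole series. The peak of PSMC1 overlaps a second protein-coding gene and was not assigned, and 17 genes had no peak: PSMA6, PSMB2, PSMB3, PSMB8, PSMB9, PSMB11, PSMC2, PSMD4, PSMD5, PSMD8, PSMD10, PSMD11, PSMD12, PSME3, PSMF1, PSMG2 and PSMG4. A gene without a peak may still be expressed, since only intervals of the deposited tables were counted. All 30 passed the filter on low counts, which left 8150 gene sums of any type.

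The series compared NAT10 knockout cells, labelled sgNAT10, with control cells, labelled NC, in the lines 143B and HOS. Both lines are human osteosarcoma, a bone-forming tumour, and 143B was derived from HOS. The groups were 143B sgNAT10, 143B NC, HOS sgNAT10 and HOS NC, with 1 acRIP library each. In acRIP, poly(A)-selected and fragmented RNA is precipitated with the anti-ac4C antibody and sequenced, and the deposited values were raw read counts per peak. The column names give line and genotype but no assay, and acRIP was inferred from the names of the tables, which speak of RIP counts. Neither a guide sequence nor the number of clones was given in the sources used here. NAT10 is the acetyltransferase that writes ac4C into RNA.

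The proteasome degrades proteins tagged with ubiquitin. Its 20S core is a barrel of alpha rings, which gate entry, and beta rings, which carry the proteolytic sites. The 19S regulatory particle caps the barrel: its ATPases (PSMC genes) unfold the substrate and its non-ATPase subunits (PSMD genes) recognise and remove ubiquitin. PSME genes encode alternative activators, and PSMG genes and a few PSMD genes encode chaperones that build the complex. Transcription of proteasome genes is raised by the factor NFE2L1 when proteasome activity is low.

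Totals over all peaks lay between 20107718 and 24785306 counts, and values are given as counts or as CPM, counts scaled by library total and TMM factor. The 143B sgNAT10 library stood apart: its Spearman correlation over all peaks was 0.72 with 143B NC, 0.58 with HOS sgNAT10 and 0.69 with HOS NC, against 0.80 to 0.86 among the other libraries. The single peak of NAT10 held 130 counts in 143B sgNAT10 against 65 in 143B NC, and 63 in HOS sgNAT10 against 180 in HOS NC. In 143B this goes against the label, so 143B sgNAT10 means throughout the library labelled so. An edit need not lower the transcript, and whether it lies within the peak is not given in the sources used here. Of the markers of bone and mesenchyme, 5 of 10 had tested peaks: VIM held 6923, 9700, 21284 and 16614 counts in 143B sgNAT10, 143B NC, HOS sgNAT10 and HOS NC, and the osteoblast genes SP7 and ALPL held at most 23. SPARC, a bone matrix gene, held 681 counts in 143B sgNAT10 against 465 in 143B NC, and 431 in HOS sgNAT10 against 1231 in HOS NC. RUNX2, the osteoblast transcription factor, held 68 against 171 in 143B sgNAT10 and NC, and 293 against 133 in HOS sgNAT10 and NC. The log2 shifts of the 5 markers, sgNAT10 over NC, ran from -1.81 (RUNX2) to 0.05 (SPARC) in 143B, with a median of -0.97, and from -1.86 (SPARC) to 0.78 (RUNX2) in HOS, with a median of 0.01. Their part in the results below was not tested.

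Each line and genotype has 1 library, so no test within a line was possible. A shift is the log2 ratio of CPM, sgNAT10 over NC, with a prior count of 1. Its 95% interval covers counting error only, because 1 library per line and genotype holds no spread between libraries. Without molecular identifiers 1 molecule may give several reads, so the interval may be too narrow even for that error. In acRIP counts without an input, a different RNA level and a different recovery by the antibody cannot be told apart, nor can fewer cells and less RNA per cell.

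Proteasome genes as a group were higher in 143B sgNAT10 than in 143B NC and lower in HOS sgNAT10 than in HOS NC. In 143B, 27 of 30 genes were higher in sgNAT10, against 56.8% of all gene sums, with a median shift of 0.98 (range -0.66 to 2.03). The exceptions were PSMC4, PSMD7 and PSME4, which were lower, as 43.2% of all gene sums were. The PSMD7 shift was -0.02, and it turned to 0.19 under upper quartile scaling and to 0.32 when only library totals were used. In HOS, 29 of 30 genes were lower in sgNAT10, against 48.1% of all gene sums, with a median shift of -0.84 (range -1.85 to 0.01), and the exception was PSMA8, where 51.9% of all gene sums were higher. The 143B count was 25 of 30 with DESeq2-type size factors, against 54.1% of all gene sums. It was 28 of 30 with upper quartile factors or library totals alone, against 62.5% and 66.0% of all gene sums. Under scaling by library totals alone the HOS count was 24 of 30, against 24.7% of all gene sums. PSMD7, PSMA4, PSMB7, PSMG3 and PSMD9 had HOS shifts above 0 under that scaling. The median shift over all gene sums was 0.19 in 143B and 0.05 in HOS, and over 4118 protein-coding genes in the members' range of counts it was 0.03 and -0.21. The interval of the shift left out 0 for 27 of the 30 genes in 143B and for 28 in HOS. Over all 8150 gene sums it did so for 5266 in 143B and 4394 in HOS. Of the 4118 genes in the members' range of counts it did so for 3178 and 2851, so most genes of that depth have such intervals.

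A difference of 2-fold or more in favour of 143B sgNAT10 was found for 14 of 30 genes, where 21.3% of all gene sums reached it. None of the 30 was 2-fold lower there, where 17.4% of all gene sums were. In HOS sgNAT10, 12 of 30 were 2-fold or more lower, where 12.7% of all gene sums were, and none was 2-fold higher, where 17.1% were. These counts depend on the scaling: library totals alone gave 22 genes in 143B, where 32.6% of all gene sums reached 2-fold, and 3 genes in HOS, where 3.46% did. Upper quartile factors gave 21 genes in 143B, where 28.4% of all gene sums reached 2-fold. The genes PSMB4, PSMB5 and PSMD1 passed 2-fold in both lines in these directions, which 2.92% of all gene sums did. In all, 26 of 30 were higher in 143B sgNAT10 and lower in HOS sgNAT10, against 26.8% of all gene sums. The share was 33.4% among the 4118 protein-coding genes in the members' range of counts. Among 891 peaks within 500 bp of the 3' end of a protein-coding gene, at a mean count of at least 50, it was 76.7%. The difference between the lines was not tested.

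**Figure D1:**
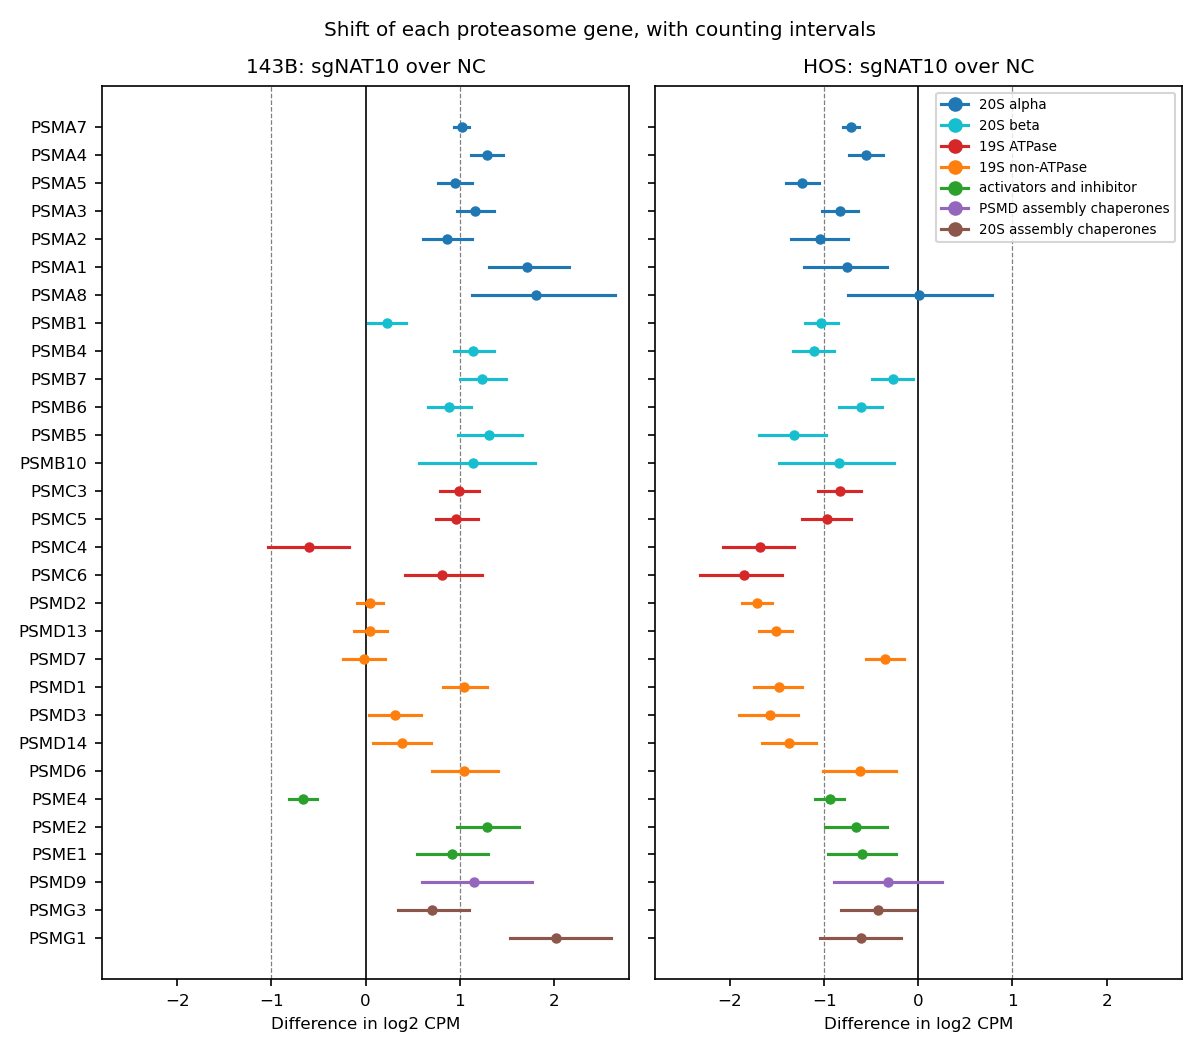
Log2 shift, sgNAT10 over NC, of each of the 30 proteasome genes in 143B and in HOS, grouped by subunit class, with 95% intervals for counting error. In 143B, 27 genes lie above 0. In HOS, 29 lie below 0, with PSMC6 lowest at -1.85. Dashed lines mark a 2-fold difference.

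The levels themselves show the crossing. Member counts summed to 18786 in 143B sgNAT10 against 7957 in 143B NC, and to 8760 in HOS sgNAT10 against 13315 in HOS NC. As a share of counts in protein-coding peaks, which does not use TMM, proteasome genes took 0.864% (Wilson 95% interval 0.852 to 0.877) in 143B sgNAT10 and 0.366% (0.358 to 0.374) in 143B NC. In HOS sgNAT10 they took 0.264% (0.259 to 0.270) and in HOS NC 0.513% (0.504 to 0.522). By this share 143B sgNAT10 was the highest and HOS sgNAT10 the lowest, with both controls between them. The order depends on the denominator. As a share of counts in all peaks, the values were 0.0840% in 143B sgNAT10 and 0.0396% in 143B NC. They were 0.0415% in HOS sgNAT10 and 0.0537% in HOS NC, so 143B NC was then the lowest. Set between the lines, all 30 genes had a lower CPM in 143B NC than in HOS NC, which 54.7% of all gene sums had. That count rests on TMM factors of 0.993 for 143B NC and 0.731 for HOS NC. By library totals alone PSME4 was higher in 143B NC, with 807 of 20107718 counts against 909 of 24785306 in HOS NC. In the sgNAT10 libraries, 27 of 30 were higher in 143B than in HOS, which 52.7% of all gene sums were. These values come from the same 4 libraries as the shifts and are another view of them.

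A single edgeR quasi-likelihood fit over both lines, blocked by line, tested genotype, and no proteasome gene passed. The smallest adjusted p among the 30 was 0.984, and 0 of 8150 gene sums and 0 of 24467 peaks passed at 0.05. At an unadjusted p under 0.05, edgeR gave 315 gene sums, DESeq2 229 and limma 328, with none of the 30 genes among them. For peaks these numbers were 944, 474 and 1089, with 1 proteasome peak among those of DESeq2 and none among the others. The fit has 1 residual degree of freedom and takes a common direction in both lines as its effect. On simulated data it recovered 36.8% of gene sums changed 8-fold and 3.33% of those changed 4-fold, among those that passed the filter. For peaks it recovered 7.27% at 8-fold and 0% at 4-fold. The simulation gave both lines the same levels and the same change, so it does not cover changes that differ between the lines.

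Of the alpha subunits of the 20S core, 7 of 8 genes had a peak, with a median shift of 1.16 in 143B. All 7 were higher in 143B sgNAT10, against 56.8% of all gene sums. PSMA7 (Gene ID 5688, chromosome 20, 62136733 to 62143394), an alpha ring subunit, held the most counts of any member: 4964 in 143B sgNAT10 against 1730 in 143B NC, and 2140 in HOS sgNAT10 against 2750 in HOS NC. Its shift was 1.02 (0.94 to 1.10) in 143B and -0.71 (-0.80 to -0.63) in HOS. Both shifts lay near the class medians of 1.16 and -0.76. PSMA4 held 1315 counts in 143B sgNAT10 against 382 in 143B NC, and 467 in HOS sgNAT10 against 537 in HOS NC. PSMA5 held 937 against 343 in 143B sgNAT10 and NC, and 416 against 766 in HOS sgNAT10 and NC. PSMA3 held 864 against 273 in 143B sgNAT10 and NC, and 400 against 557 in HOS sgNAT10 and NC. These 3 genes encode other positions of the alpha ring, and their shifts lay between 0.95 and 1.28 in 143B and between -1.23 and -0.55 in HOS. Both PSMA3 peaks also overlap the antisense gene PSMA3-AS1, whose reads cannot be told apart here because the strand setting of the counts is not given. PSMA2 and PSMA1 had shifts of 0.86 and 1.71 in 143B and of -1.04 and -0.76 in HOS. PSMA8, the alpha subunit of the testis form, was the exception in HOS: it held 97 counts in 143B sgNAT10 against 19 in 143B NC, and 36 in HOS sgNAT10 against 28 in HOS NC. Its HOS shift of 0.01 (-0.74 to 0.78) rests on few counts, and 1 of its 2 peaks, both far inside the gene, overlaps the pseudogene DHFRP1.

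**Figure D2:**
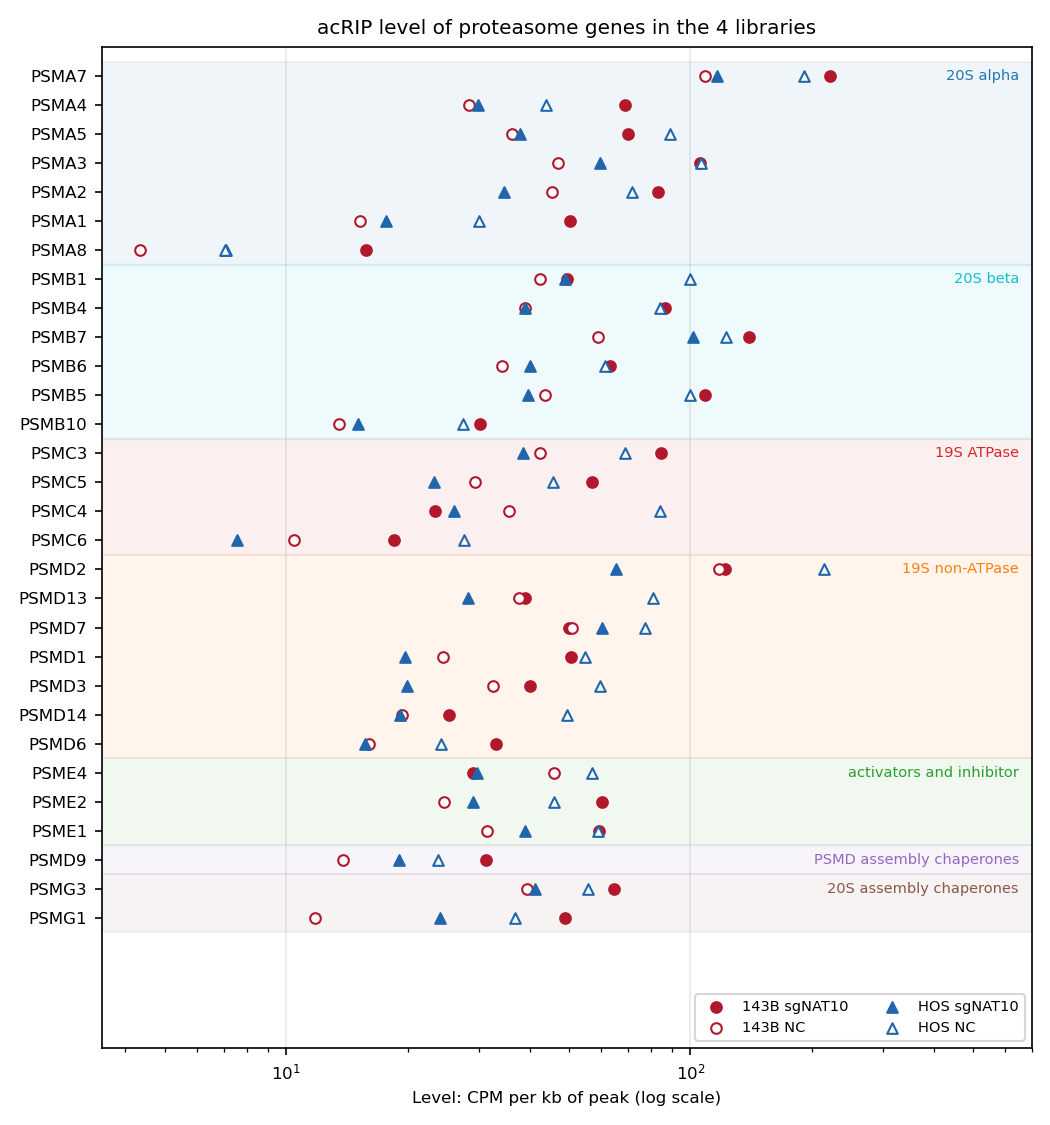
CPM per kb of peak of each proteasome gene in the 4 libraries on a log axis, grouped by subunit class. PSMA7 has the highest level in 143B sgNAT10, at 221, against 109 in 143B NC, and PSMA8 the lowest in 143B NC, at 4.35, against 15.7 in 143B sgNAT10.

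Of the beta subunits, 6 of 11 genes had a peak, with medians of 1.14 in 143B and -0.94 in HOS. All 6 were higher in 143B sgNAT10, against 56.8% of all gene sums, and all 6 lower in HOS sgNAT10, against 48.1%. PSMB5 (Gene ID 5693, chromosome 14, 23025851 to 23035220) encodes the subunit with the chymotrypsin-like site, the main target of the drug bortezomib. It held 337 counts in 143B sgNAT10 against 96 in 143B NC, and 101 in HOS sgNAT10 against 199 in HOS NC. Its shifts of 1.31 (0.98 to 1.66) and -1.32 (-1.69 to -0.98) were nearly equal in size and opposite in sign. PSMB7, with the trypsin-like site, and PSMB6, with the caspase-like site, had 143B shifts of 1.24 and 0.88. In HOS their shifts were -0.27 and -0.61, so the 3 catalytic subunits ran from -1.32 to -0.27 there. PSMB7 held 607 counts in 143B sgNAT10 against 182 in 143B NC, and 361 in HOS sgNAT10 against 341 in HOS NC. PSMB6 held 571 against 219 in 143B sgNAT10 and NC, and 297 against 356 in HOS sgNAT10 and NC. The raw HOS counts of PSMB7 are close, and its shift below 0 comes from the scaling factors of 1.09 and 0.731 for HOS sgNAT10 and HOS NC.

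PSMB4, a structural beta subunit, held 760 counts in 143B sgNAT10 against 243 in 143B NC, and 281 in HOS sgNAT10 against 475 in HOS NC. PSMB1, another structural subunit, held 539 against 327 in 143B sgNAT10 and NC, and 436 against 699 in HOS sgNAT10 and NC. Its 143B shift of 0.22 (0.02 to 0.43) was the smallest of the 20S core. PSMB10, the inducible subunit that replaces PSMB7 in the immunoproteasome, had shifts of 1.14 and -0.85 on 31 to 98 counts. The other inducible subunits, PSMB8 and PSMB9, had no peak.

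The ATPases of the 19S base had a peak in 4 of 6 genes. PSMC3 held 726 counts in 143B sgNAT10 against 258 in 143B NC, and 271 in HOS sgNAT10 against 380 in HOS NC. PSMC5 held 631 against 229 in 143B sgNAT10 and NC, and 210 against 323 in HOS sgNAT10 and NC. The shifts of these genes were 0.99 and 0.96 in 143B and -0.84 and -0.97 in HOS, near those of the 20S core. PSMC4 (Gene ID 5704, chromosome 19, 39971165 to 39981764) was lower in sgNAT10 in both lines, with 91 counts in 143B sgNAT10 against 98 in 143B NC, and 83 in HOS sgNAT10 against 210 in HOS NC. Its shifts were -0.60 (-1.03 to -0.18) and -1.68 (-2.07 to -1.32), and the edgeR fit over both lines gave a log2 change of -1.15 (SE 0.73, adjusted p 0.984). PSMC6 held 182 against 73 in 143B sgNAT10 and NC, and 61 against 175 in HOS sgNAT10 and NC. Its HOS shift of -1.85 (-2.32 to -1.44) was the lowest of all 30 genes. PSMC1 has a peak on chromosome 14 from 90272361 to 90272601 that also overlaps the protein-coding gene NRDE2, so it was not assigned. That peak held 439 counts in 143B sgNAT10 against 151 in 143B NC, and 169 in HOS sgNAT10 against 302 in HOS NC.

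The non-ATPase subunits of the 19S particle differed from the core in both lines: 7 of 11 genes had a peak, with medians of 0.31 in 143B and -1.48 in HOS. In HOS sgNAT10, 5 of the 7 were 2-fold or more lower, against 12.7% of all gene sums. PSMD2 (Gene ID 5708, chromosome 3, 184299241 to 184309050), the scaffold that holds ubiquitin receptors, held 1082 counts in 143B sgNAT10 against 741 in 143B NC, and 476 in HOS sgNAT10 against 1223 in HOS NC. Its shift was 0.05 (-0.09 to 0.18) in 143B and -1.71 (-1.87 to -1.56) in HOS. PSMD13 held 655 against 448 in 143B sgNAT10 and NC, and 387 against 869 in HOS sgNAT10 and NC, with shifts of 0.05 and -1.52. For both genes the interval in 143B spans 0, while in HOS sgNAT10 their levels were 0.306 and 0.350 times those in HOS NC. PSMD7, a partner of the deubiquitinase PSMD14, had small shifts in both lines: it held 401 against 288 in 143B sgNAT10 and NC, and 396 against 397 in HOS sgNAT10 and NC. Its shift was -0.02 (-0.24 to 0.20) in 143B and -0.35 (-0.56 to -0.15) in HOS, where the interval leaves out 0. PSMD1, the other scaffold subunit, went with the core in 143B, with 585 against 200 in 143B sgNAT10 and NC, and 186 against 408 in HOS sgNAT10 and NC. Its shifts were 1.05 and -1.48. PSMD3, PSMD14 and PSMD6 had shifts of 0.31, 0.38 and 1.04 in 143B and of -1.58, -1.37 and -0.62 in HOS. The PSMD6 peak overlaps the antisense gene PSMD6-AS2.

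The activators were mixed. PSME1 and PSME2, which form the PA28 ring induced by interferon, had 143B shifts of 0.91 (0.55 to 1.30) and 1.29 (0.98 to 1.63) and HOS shifts of -0.59 and -0.66. PSME1 held 219 counts in 143B sgNAT10 against 82 in 143B NC, and 118 in HOS sgNAT10 against 140 in HOS NC. PSME2 held 357 against 103 in 143B sgNAT10 and NC, and 141 against 175 in HOS sgNAT10 and NC. PSME4 (Gene ID 23198, chromosome 2, 53864069 to 53970993), which encodes the large single-chain activator PA200, went the other way in 143B. It held 719 against 807 in 143B sgNAT10 and NC, and 603 against 909 in HOS sgNAT10 and NC. Its shift of -0.66 (-0.81 to -0.52) in 143B was the lowest of all 30 genes, and in HOS it was -0.94 (-1.09 to -0.79). The assembly chaperones were PSMD9, with shifts of 1.15 and -0.32, and PSMG3, with 0.71 and -0.43. PSMD9 held 108 against 34 in 143B sgNAT10 and NC, and 54 against 53 in HOS sgNAT10 and NC. PSMG3 held 204 against 88 in 143B sgNAT10 and NC, and 107 against 113 in HOS sgNAT10 and NC. PSMG1 (Gene ID 8624, chromosome 21, 39174769 to 39183514), which with PSMG2 assembles the alpha ring, had the highest 143B shift of all 30 genes, 2.03 (1.54 to 2.61). It held 211 counts in 143B sgNAT10 against 36 in 143B NC, and 85 in HOS sgNAT10 against 102 in HOS NC.

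The 20S core and the 19S particle shifted by different amounts, and the difference had the same sign in both lines. Over 13 core genes the median shift was 1.14 in 143B and -0.83 in HOS, and over 11 genes of the 19S particle 0.38 and -1.48. In 143B sgNAT10, 9 of 13 core genes and 2 of 11 genes of the 19S particle were 2-fold or more higher. Of all gene sums 21.3% were, so the 19S count was near that share. In HOS sgNAT10, 5 of 13 and 7 of 11 were 2-fold or more lower, against 12.7% of all gene sums. Core peaks took 69.5% (Wilson 95% interval 68.8 to 70.2) of the counts of both together in 143B sgNAT10 and 59.8% (58.6 to 61.0) in 143B NC. In HOS the share was 68.0% (66.9 to 69.0) in sgNAT10 and 60.1% (59.2 to 61.0) in NC. Both sgNAT10 libraries thus had a higher core share than both NC libraries, and this share does not depend on scaling between libraries. Without PSMA7 the share was 56.9% in 143B sgNAT10 and 46.1% in 143B NC, and 55.5% in HOS sgNAT10 and 48.0% in HOS NC. Without PSMA7 and PSMD2 it was 62.5% against 54.0% in 143B sgNAT10 and NC, and 60.8% against 55.5% in HOS sgNAT10 and NC. The difference in share between the genotypes was not tested.

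**Figure D3:**
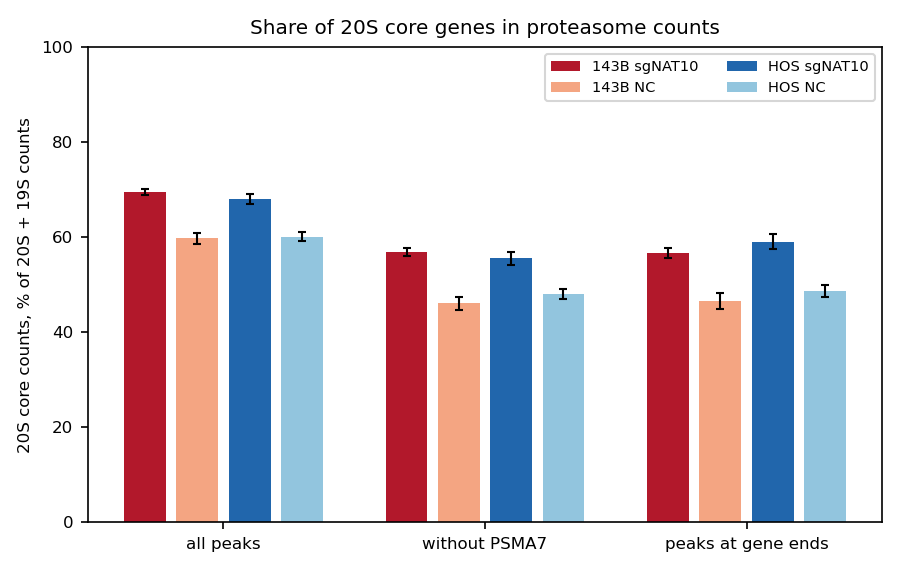
Share of 20S core counts in the sum of 20S core and 19S counts in each library, with Wilson 95% intervals, for all peaks, without PSMA7 and for peaks at gene ends. With all peaks the sgNAT10 libraries lie at 69.5% and 68.0%, and the NC libraries at 59.8% and 60.1%.

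Levels can be set between genes only per length, here CPM per kb of peak. The median over the core genes was 70.0 in 143B sgNAT10 against 39.0 in 143B NC, and 39.0 in HOS sgNAT10 against 84.1 in HOS NC. For the non-ATPase genes it was 40.2 against 32.4 in 143B sgNAT10 and NC, and 19.9 against 59.7 in HOS sgNAT10 and NC. PSMA7 was the highest gene in both sgNAT10 libraries, with 221 in 143B sgNAT10 against 109 in 143B NC, and 116 in HOS sgNAT10 against 190 in HOS NC. PSMD2 was the highest gene in both NC libraries: it had 122 against 118 in 143B sgNAT10 and NC, and 65.4 against 214 in HOS sgNAT10 and NC. Genes with a high shift in 143B tended to have the less negative shift in HOS: across the 30 genes Pearson's r was 0.49 and Spearman's rho 0.47, against -0.03 and -0.01 across all 8150 gene sums. This is a description across genes, which are not independent and whose values share libraries.

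In 143B, peaks at the 3' ends of proteasome genes had higher shifts than peaks away from the ends, as did those of other protein-coding genes, while in HOS the proteasome medians at both places were close. Strand came from a RefSeq promoter table and was not given for PSMA7, PSMB1, PSMB6, PSMB7 and PSMG3. All 15 peaks within 500 bp of an annotated 3' end were higher in 143B sgNAT10 and lower in HOS sgNAT10, with medians of 1.14 and -0.97. At a mean count of at least 50, 891 peaks of all protein-coding genes lay there, and 85.2% of them were higher in 143B sgNAT10 and 85.2% lower in HOS sgNAT10, with medians of 0.81 and -0.69. Both signs together were found for 76.7% of the 891. Of the 15 peaks, 9 were 2-fold or more higher in 143B sgNAT10, against 35.4% of the 891, and 7 were 2-fold or more lower in HOS sgNAT10, against 29.3%. Away from both ends, 22 proteasome peaks of that depth had medians of 0.18 and -1.14, against -0.89 in 143B and -0.02 in HOS for 5069 peaks of protein-coding genes. There 11 of 22 were higher in 143B sgNAT10 and 22 of 22 lower in HOS sgNAT10, against 26.1% and 50.6% of such peaks. Of the 22, 5 were 2-fold or more higher in 143B sgNAT10, against 9.92% of such peaks, and 3 were 2-fold or more lower there, against 46.5%. In HOS, 13 of 22 were 2-fold or more lower in sgNAT10, against 14.5%.

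**Figure D4:**
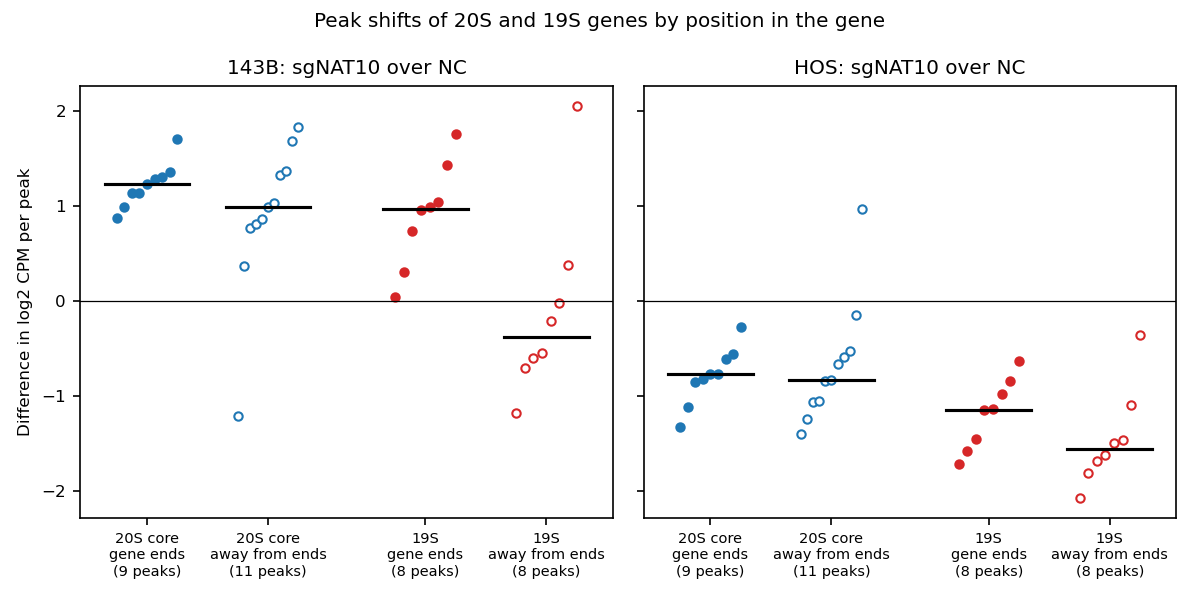
Log2 shift, sgNAT10 over NC, of proteasome peaks at gene ends and away from them, for the 20S core and the 19S particle, in 143B and HOS. Points are peaks and bars are medians. In 143B, 19S peaks away from ends have a median of -0.37 and 20S peaks there 0.998.

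By median shift, the core and the 19S particle lay further apart in peaks inside the genes than at gene ends. At gene ends, the median 143B shift was 1.24 for 9 core peaks and 0.98 for 8 peaks of the 19S particle, and away from the ends it was 0.998 for 11 core peaks and -0.37 for 8 peaks of the 19S particle. In HOS the medians at gene ends were -0.76 for the core and -1.14 for the 19S particle, and away from the ends -0.83 and -1.55. The core share among peaks at gene ends was 56.7% in 143B sgNAT10 and 46.6% in 143B NC, and 59.0% in HOS sgNAT10 and 48.6% in HOS NC. The order of genotypes in that share was the same at gene ends alone. Among peaks away from ends it was 84.8% against 72.9% in 143B sgNAT10 and NC, and 75.9% against 70.5% in HOS sgNAT10 and NC. As a ratio of core to 19S counts, HOS sgNAT10 and HOS NC had 1.44 and 0.947 at gene ends and 3.15 and 2.39 away from them, so in HOS the genotypes were not further apart inside the genes by this measure.

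Peaks of the same gene were also compared, though without exons it is not known whether they lie on the same transcript. In 11 genes with more than 1 peak, the peak nearest the 3' end (nearest either end where strand was not given) had a higher 143B shift than the median of the other peaks in 11 of 11 genes, by a median of 0.95, which 61.6% of 2842 protein-coding genes with more than 1 peak did. In HOS it did so in 8 of 11 genes, by a median of 0.19, against 50.7%. Over the 2842 genes the median difference was 0.34 in 143B and 0.01 in HOS. PSMC6 showed the widest gap: its peak near the 3' end (chromosome 14, 52727787 to 52727968) held 116 counts in 143B sgNAT10 against 19 in 143B NC, and 18 in HOS sgNAT10 against 31 in HOS NC. Its inner peak (52718929 to 52719098) held 66 against 54 in 143B sgNAT10 and NC, and 43 against 144 in HOS sgNAT10 and NC. The 143B shift was 2.06 (1.40 to 2.90) at the first and -0.20 (-0.75 to 0.34) at the second, so the gene's sum covers peaks that differ in sign. PSMB1 held 433 against 153 counts at its end peak in 143B sgNAT10 and NC, but 106 against 174 at its inner peak, with shifts of 0.999 and -1.20. In HOS both PSMB1 peaks were lower in sgNAT10, with shifts of -0.76 and -1.23.

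PSMD14, the deubiquitinase of the lid, held 155 against 40 counts at its 3' end peak in 143B sgNAT10 and NC, and 90 against 93 at its inner peak. The shifts were 1.44 and -0.54 in 143B, and -1.14 and -1.45 in HOS. The 3 PSMD13 peaks, in order toward the 3' end, had 143B shifts of -1.17, -0.70 and 0.74 and HOS shifts of -1.80, -1.62 and -1.14. The near-zero PSMD13 sum in 143B is thus made of peaks on both sides of 0. The PSMD1 peaks, inner first, had shifts of 0.39 and 1.76 in 143B and of -1.49 and -1.45 in HOS. In the core, the 3 PSMA7 peaks, from the gene's end inward, had 143B shifts of 1.36, 0.998 and 0.77 and HOS shifts of -0.56, -0.66 and -0.83. The PSMA5 peaks had 1.33 and 0.38 in 143B and -1.06 and -1.40 in HOS, the peak nearer the 3' end first. Inner and outer peaks of PSMA4 had 143B shifts of 0.81 and 1.68, those of PSMA3 1.04 and 1.29, and those of PSMA8 1.38 and 1.84. In HOS these were -0.52 and -0.58 for PSMA4, -0.84 and -0.81 for PSMA3, and 0.97 and -0.14 for PSMA8. The inner PSMA8 peak held only 13 against 3 counts in 143B sgNAT10 and NC, and 6 against 2 in HOS sgNAT10 and NC. It did not pass the filter, and its intervals span 0 in both lines (-0.25 to 4.07 in 143B, -1.25 to 4.57 in HOS). PSMA8 thus adds little to the comparison within genes. All core peaks except the inner peak of PSMB1 were thus higher in 143B sgNAT10. At a mean count of at least 50, 72.5% of peaks at either end of protein-coding genes were, and 26.1% of those away from both ends. PSME4 has 5 peaks along a long gene, with 143B shifts from the 3' to the 5' end of -0.13, -0.999, -1.06, -0.55 and -0.74. Its HOS shifts in that order were -1.52, -1.90, -1.54, -0.56 and -0.35. The PSME4 peak at the 5' end, with 383 against 455 counts in 143B sgNAT10 and NC and 292 in each HOS library, is the only proteasome peak at an annotated 5' end.

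**Figure D5:**
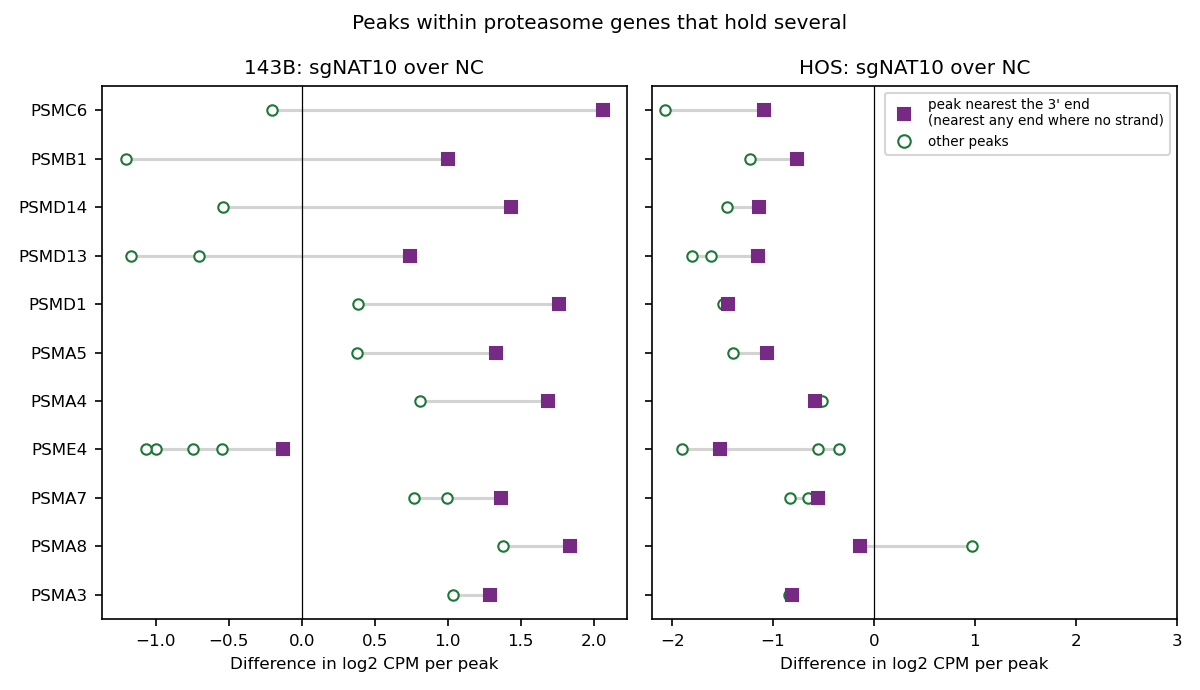
Log2 shift, sgNAT10 over NC, of every peak of the 11 proteasome genes with more than 1 peak, in 143B and HOS. In 143B the peak nearest the gene's end lies above the median of the others in 11 of 11 genes.

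Reads that fit a processed copy of a gene may be counted at either place. Of the 30 genes, 13 have pseudogenes in the annotation, with medians of 0.95 in 143B and -0.83 in HOS. The 17 genes without one had medians of 1.04 and -0.94.

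Promoters were read for a shared element because proteasome genes are a known target group of NFE2L1, which binds the antioxidant response element. The core of that element, TGACNNNGC, was sought on both strands in the 250 bases before each gene's start in the RefSeq table (GRCh38.p14). It stood in 6 of the 25 members with a promoter entry, or 24%, and in 11.5% of 15842 protein-coding promoters. The 6 genes were PSMD3, PSMD9, PSME1, PSME2, PSME4 and PSMG1. The examples below carry it at different distances, in a 19S subunit, in the core chaperone with the highest 143B shift and in an activator. The sequences run 5' to 3' on the gene's strand up to its RefSeq start, with the match in capitals. For PSMG1 this start lies inside the gene bounds used above, which reach 39183514. The last bases of its window are thus within the gene, and its distance is counted from that inner start. The PSMD3 window is chr17:39980557-39980806 (plus strand), with the match 37 bases before the start; that of PSMG1 is chr21:39183452-39183701 (minus strand), with 183 bases; and that of PSME1 is chr14:24135944-24136193 (plus strand), with 86 bases.
PSMD3: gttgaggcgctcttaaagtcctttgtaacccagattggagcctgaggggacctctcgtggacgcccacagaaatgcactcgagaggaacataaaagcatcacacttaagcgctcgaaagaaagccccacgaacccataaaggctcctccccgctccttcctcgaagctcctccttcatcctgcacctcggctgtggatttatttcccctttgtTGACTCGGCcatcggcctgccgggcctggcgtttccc
PSMG1: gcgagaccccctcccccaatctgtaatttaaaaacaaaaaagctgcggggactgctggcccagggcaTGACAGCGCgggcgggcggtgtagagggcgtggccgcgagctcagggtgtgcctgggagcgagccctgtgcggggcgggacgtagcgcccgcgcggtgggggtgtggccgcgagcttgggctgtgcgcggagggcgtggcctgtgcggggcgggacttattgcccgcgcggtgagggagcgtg
PSME1: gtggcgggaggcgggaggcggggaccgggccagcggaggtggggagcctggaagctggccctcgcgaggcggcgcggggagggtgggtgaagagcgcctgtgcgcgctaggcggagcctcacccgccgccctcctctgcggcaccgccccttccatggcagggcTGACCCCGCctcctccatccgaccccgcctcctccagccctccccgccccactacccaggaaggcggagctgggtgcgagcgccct
In 143B the median shift was 1.03 for the 6 genes with the element and 0.99 for the 19 without it, and in HOS -0.63 and -1.04. In 143B the values of the genes with it ran from -0.66 for PSME4 to 2.03 for PSMG1, which is the whole range of the 30 genes. A match is a description of letters and shows no binding.

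Other genes of the ubiquitin and proteasome system were read from lists of the pathway. Of all gene sums, 56.8% were higher in 143B sgNAT10 and 48.1% lower in HOS sgNAT10, and the lists below are small beside them. Of 11 proteasome-associated factors, 6 were tested: 5 were higher in 143B sgNAT10 and 4 lower in HOS sgNAT10, with medians of 0.86 and -0.48. POMP, the chaperone that matures the core, held 501 against 350 counts in 143B sgNAT10 and NC, and 344 against 689 in HOS sgNAT10 and NC. Its shifts were 0.02 (-0.18 to 0.22) in 143B and -1.35 (-1.54 to -1.16) in HOS. SEM1, a small lid subunit without a PSM symbol, held 234 against 56 in 143B sgNAT10 and NC, and 145 against 111 in HOS sgNAT10 and NC. The SEM1 shifts were 1.55 (1.14 to 2.01) in 143B and 0.03 (-0.33 to 0.40) in HOS. Of 17 genes for ubiquitin and its activation, 11 were tested, with 8 higher in 143B sgNAT10, 10 lower in HOS sgNAT10 and medians of 0.54 and -0.84. The ubiquitin genes RPS27A and UBB had shifts of 0.54 and 0.02 in 143B and of -0.21 and -0.84 in HOS. RPS27A held 6889 against 3353 counts in 143B sgNAT10 and NC, and 6396 against 5818 in HOS sgNAT10 and NC. UBB held 3546 against 2468 in 143B sgNAT10 and NC, and 3138 against 4417 in HOS sgNAT10 and NC.

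The shuttle and segregase genes, which bring substrates to the proteasome, had 9 of 12 tested, with medians of -0.01 in 143B and -1.09 in HOS. Of the 9, 4 were higher in 143B sgNAT10, against 56.8% of all gene sums, and 8 lower in HOS sgNAT10, against 48.1%. VCP, the segregase that extracts tagged proteins, held 956 against 1041 in 143B sgNAT10 and NC, and 1205 against 2486 in HOS sgNAT10 and NC. UBQLN1, a shuttle, held 361 against 394 in 143B sgNAT10 and NC, and 319 against 843 in HOS sgNAT10 and NC. Both genes had a 143B shift of -0.62, so they did not share the direction of the proteasome core in 143B. Of 7 regulators of proteasome genes, only NGLY1, the enzyme that activates NFE2L1, was tested, with 56 against 16 counts in 143B sgNAT10 and NC, and 57 against 35 in HOS sgNAT10 and NC. No gene of these lists passed the edgeR test.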

How the data were processed

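Per the labels, poly(A) RNA was fragmented, precipitated with an anti-ac4C antibody and made into libraries with an NEBNext kit. Per the submitters' processing notes, FastQC, STAR, SAMtools, deepTools and GRCh38 were used; the peak caller, counting tool, strand setting, handling of reads with several places and the base of interval starts are not given in the sources used here, so positions are printed as deposited. The authors deposited raw counts per peak, 1 table per line, with 7 blank columns that were not used. The 4 count columns were joined on their intervals, and input libraries were not analysed here. Labels carry 1 library per line and genotype, with no replicate.

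Peaks were assigned to the single protein-coding gene they overlapped among 59792 genes, otherwise to the single gene of any type: 19087 peaks went to 9089 genes, 724 overlapped several and 11584 none. Exons are not in the table used here. Counts were summed per gene, filtered (filterByExpr, minimum count 10, minimum total 15) and scaled by TMM factors (0.731 to 1.26). edgeR 4.0.16 quasi-likelihood (line block, genotype tested, Benjamini-Hochberg, 0.05) was the test, with DESeq2 1.42.0 and limma 3.58.1 as alternatives. It was tested on simulated data. Shift intervals are exact conditional binomial intervals, and share intervals are Wilson intervals. Other scalings, filters, prior counts, gene values and assignments were tried. Plots used matplotlib 3.10.9.

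Members and lists were chosen with earlier results of these data known. Named were the 4 members with the highest mean CPM per class, the 2 highest and 2 lowest shifts per line, members against the line's median, every peak of genes with several, the 2 highest of each other list and NAT10. The further alternatives, the promoter element, the 20S share and the peak-position summaries were chosen after the data were seen.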

Additional observations from a re-analysis of the deposited data

Results flagged for a closer look

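Proteasome genes were marked because the lines went opposite ways under the same contrast: 26 of the 30 genes were higher in 143B sgNAT10 than in 143B NC and lower in HOS sgNAT10 than in HOS NC. The difference between the lines was not tested, since each line has 1 library per genotype, and 26.8% of all gene sums had the same pair of signs.

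PSMG3-AS1, a noncoding gene named after the core chaperone PSMG3, lies outside the protein-coding rule and was marked as a signal in data not used above. Its peaks together held 655 counts in HOS sgNAT10 against 137 in HOS NC, and 76 in 143B sgNAT10 against 232 in 143B NC. The larger peak (chromosome 7, 1577180 to 1579519) had a shift of 1.91 (1.64 to 2.21) in HOS and -2.05 (-2.47 to -1.68) in 143B. The protein-coding PSMG3 had shifts of -0.43 and 0.71, so the signs of the pair were opposite in each line.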

How the results depend on the processing

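No paired analysis was possible because each line and genotype has 1 library and the labels carry no replicate numbers, so no library could be left out either. Neither median shift changed sign under the settings run. With the highest peak in place of the gene sum, the 143B shifts were -0.20 for PSMC6 and -0.54 for PSMD14, whose sums were above 0. The 143B median of 0.98 was 0.89 with DESeq2-type size factors, 1.19 with upper quartile factors, 1.32 with library totals alone and 0.93 with peaks on a single gene of any type. The HOS median of -0.84 was -0.9955, -0.93, -0.27 and -0.96 under the same settings. Library totals alone gave 22 genes 2-fold higher in 143B sgNAT10 (32.6% of all gene sums) and 3 genes 2-fold lower in HOS sgNAT10 (3.46% of all gene sums). They also moved the median of all gene sums to 0.53 in 143B and 0.61 in HOS. Relative to that median, the members stood at 0.79 in 143B and between -0.89 and -0.88 in HOS under the TMM, DESeq2-type, upper quartile and library-total scalings. Alternatives chosen after the data were seen gave 143B medians of 1.06 (TMM without the rRNA block), 1.04 (peaks at gene ends only) and 0.84 (peaks away from ends only). The HOS medians were -1.12 without the rRNA block and -1.14 away from ends. With peaks at ends only, the members stood 0.34 above the median of all genes in 143B and at -0.32 relative to it in HOS, against 0.79 and -0.89 with all peaks. Peaks at ends left 7 of 21 genes 2-fold lower in HOS sgNAT10, where 22.8% of all genes were, and peaks away from ends left 5 of 16 genes 2-fold higher in 143B sgNAT10, where 18.6% were. Fewer genes have such peaks. The cause of the other moves was not tested. No proteasome gene or peak passed the test in edgeR, DESeq2 or limma, with or without the line block, the filter or other scalings. With no filter, 112 peaks passed, 50 higher and 62 lower in sgNAT10, and none was a proteasome peak. Counts of 19 to 98 limit PSMA8 and PSMB10.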

Other observations

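PSMA1, an alpha ring subunit, had a 143B shift of 1.71 (1.31 to 2.16), with 271 counts in 143B sgNAT10 against 58 in 143B NC. In HOS it held 78 counts in sgNAT10 against 104 in NC. Its peak lies 8 bp from the annotated 3' end. The pseudogene PSMC1P1 held 95 against 31 counts in 143B sgNAT10 and NC, and 20 against 24 in HOS sgNAT10 and NC. In the gene CLDN14, a peak that also overlaps PSMD4P1 held 5 against 6 counts in 143B sgNAT10 and NC, and 95 against 17 in HOS sgNAT10 and NC. PSMD4 itself, a ubiquitin receptor of the 19S particle, had no peak.

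Of the markers of other cell types, 3 of 8 were tested: the keratin genes KRT18 and KRT8, and MBP, a myelin gene. KRT18 held 2121 counts in 143B sgNAT10 against 964 in 143B NC, and 1220 in HOS sgNAT10 against 1511 in HOS NC. KRT8 held 385 against 283 in 143B sgNAT10 and NC, and 460 against 675 in HOS sgNAT10 and NC. MBP held 214 against 69 in 143B sgNAT10 and NC, and 62 against 28 in HOS sgNAT10 and NC. The shifts were 0.64, -0.05 and 1.12 in 143B and -0.66, -0.90 and 0.78 in HOS for KRT18, KRT8 and MBP. Their part in the proteasome shifts was not tested.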
